A study of Macaca mulatta with 24 samples.

Results

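Chemokines are small secreted or membrane-held proteins that draw leukocytes along a gradient, and their receptors are G protein-coupled receptors on the leukocytes themselves and on some stromal cells. The classes are named after the spacing of the first cysteines of the ligand (CC, CXC, C and CX3C), and atypical receptors bind ligands without starting G protein signalling and so shape how much ligand is free. In fat, chemokines made by adipocytes, stromal cells, endothelium and resident macrophages are known for recruiting monocytes, T cells and eosinophils, and for retaining cells in the tissue.

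The genes described here are those rows of the count table whose symbol is CCL, CXCL, CCR or CXCR followed by a number, or is *CX3CL1*, *CX3CR1*, *XCL1*, *XCR1* or *ACKR1* to *ACKR4*. They came to 41 of the 32386 genes in the table, 26 ligands (18 CC and 8 CXC) and 15 receptors (7 CC, 6 CXC, *XCR1* and the atypical receptor *ACKR1*). The symbol came from the gene name table for 40 of them and from the study's supplementary tables for 1, *CCL11*. A chemokine gene whose identifier could not be paired with a symbol in this way is not among them and was not analysed here. The table holds no gene lengths, so levels are compared between groups for the same gene and not between genes.

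RNA-seq was done on omental (visceral) white adipose tissue (WAT) of 24 female rhesus macaques (*Macaca mulatta*), with 6 animals in each of 4 groups and 1 library per animal. Controls (*C*) ate monkey chow and carried cholesterol implants, *T* animals ate chow and carried testosterone implants, *WSD* animals ate a high-fat Western-style diet with cholesterol implants, and *T* + *WSD* animals had the Western-style diet and testosterone implants, in each case for 3 years before the biopsy. The sample labels give every animal an age of 4 years, and the study's methods give an older age, describing the animals as post-pubertal and as chosen from a larger cohort because they were representative of their group. Animals are separate individuals with 1 library each, so the spread below holds differences between animals and between libraries together.

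Total counts per library ranged from 6899185 to 28270776, with 3 counts equal to between 0.0938 and 0.848 CPM (the count divided by the scaled library size, in the usual unit), a floor that covers counting error only. In 8 libraries, 2 in each group, the gene ENSMMUG00000038258 took 9.92% to 54.7% of all counts, against 0.879% to 2.51% in the other 16, and each called member is given with and without these 8. Adipocyte markers were abundant in every group, their summed level running from 3345 to 31692 CPM over the animals with 9 identifiers and none at 0 throughout. Markers of mesothelium, the cell layer that covers the omentum, were also present and were lower in *T* + *WSD* than in *C* for 9 of 10 tested genes. Of the 13 cell type lists checked, the erythroid list had 1 of its 2 identifiers at 0 in all *T* and in all *WSD* animals, and no other list had an identifier at 0 throughout a group. In *T* + *WSD* against *C*, *LEP* and *FABP4* of 9 tested adipocyte identifiers, *DPT* of 6 fibroblast genes and *RGS5* of 5 smooth muscle and pericyte genes were called higher and *PDPN* of 3 lymphatic genes lower. The other genes of the fibroblast, smooth muscle and lymphatic lists were not called and did not all go the same way. Of the fibroblast log2 fold changes, 3 were above 0 and 3 below. Those of smooth muscle and pericyte genes were 4 above and 1 below, and of lymphatic genes 1 above and 2 below. None was called among the tested B cell (4), mast cell (2), dendritic cell (4) and erythroid (1) markers.

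A filter on low counts kept 15207 genes, 23 of the 41 chemokine genes among them (13 ligands and 10 receptors). The other 18 were too low to test: *CXCL5*, a neutrophil attractant, had no count in any library, 7 genes (*CCL1*, *CCL7*, *CCL14*, *CCL16*, *CCL20*, *CXCL13* and *CCR8*) had 1 to 20 counts over all 24 libraries, and 10 (*CCL4L1*, *CCL15*, *CCL23*, *CCL27*, *CCL28*, *CXCL1*, *CCR3*, *CCR9*, *CXCR1* and *CXCR5*) had 45 to 148. No untested gene had more than 19 counts in 1 library. Receptors of eosinophils (*CCR3*), B cells (*CXCR5*) and neutrophils (*CXCR1*) are in this group, so a difference in them was not detectable at this depth.

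Among the 23 tested genes, *CXCL14* was higher and *CXCL16* was lower in *T* + *WSD* than in *C*, and these were the only members called as differentially expressed genes (DEGs) in any of the 6 comparisons by edgeR's quasi-likelihood test. A DEG had a Benjamini-Hochberg adjusted p under 0.05 over all tested genes and a fold change over 1.5, and for the interaction of testosterone and diet the adjusted p was under 0.1. In the same comparison 10% of all tested genes were DEGs, 4.72% higher and 5.29% lower, so 2 of 23 is close to the background share. The log2 fold changes of the 23 members ran from -2.39 (*CXCL10*, which was -0.59 without *C* replicate 2) to 1.72 (*CXCL14*), 13 above 0 and 10 below, with a median of 0.11 against -0.04 over all tested genes. An unadjusted p under 0.05 was reached by 3 members (*CXCL14*, *CXCL16* and *CCL11*), where 32.1% of all tested genes reached it. DESeq2 called the same 3, and 10.9% of the genes it tested. The 3 had no overlap between the 6 *T* + *WSD* and the 6 *C* animals, a pattern shown by 7.61% of all tested genes.

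**Figure D1:**
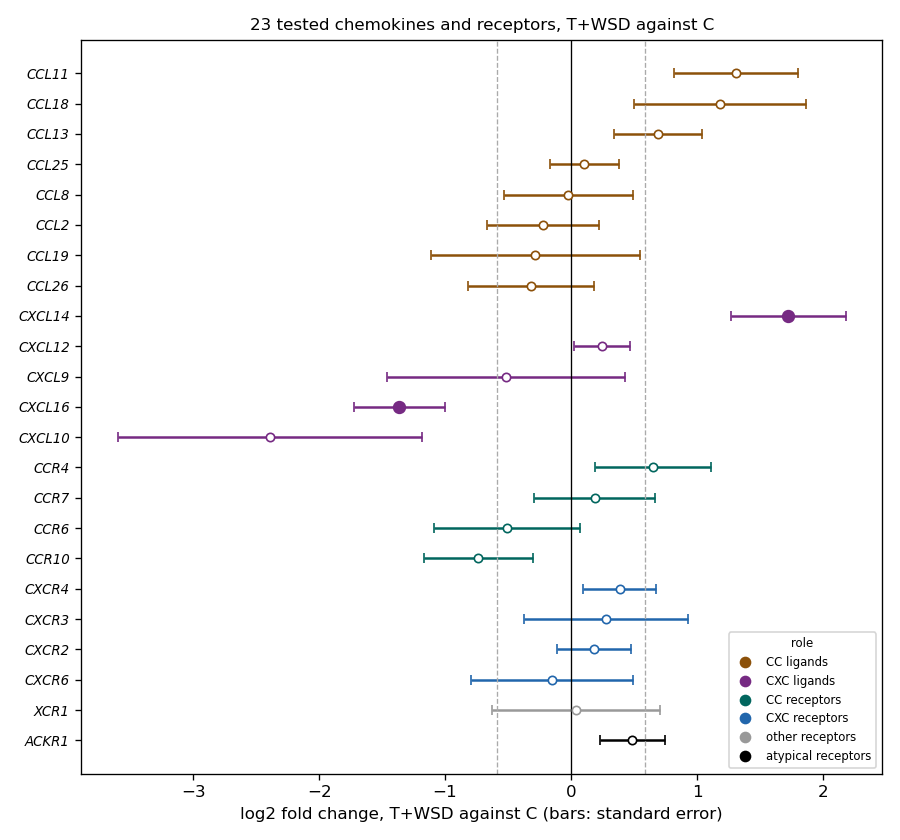
Log2 fold changes (x axis) of the 23 tested chemokines and receptors in *T* + *WSD* against *C*, ordered within role and coloured by role. Points are edgeR estimates, bars are 1 standard error, filled points are the DEGs *CXCL14* (1.72) and *CXCL16* (-1.36), and dashed lines mark a fold change of 1.5 in either direction.

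*CXCL14* (ENSMMUG00000004771) encodes a chemokine found at steady state in epithelia and adipose tissue and its receptor is not settled. Its level in *C* was 6.38 ± 4.70 CPM (mean ± SD, n = 6), with a lowest value of 1.46, a median of 5.36 and a highest of 12.5. In *T* it was 7.76 ± 4.26 CPM (lowest 2.75, median 7.11, highest 14.8), and in *WSD* 13.3 ± 6.05 CPM (lowest 5.42, median 14.5, highest 20.7). In *T* + *WSD* it was 21.3 ± 4.60 CPM (lowest 16.6, median 20.1, highest 27.7). All 6 *T* + *WSD* animals lay above every *C* and every *T* animal, whereas the *WSD* animals overlapped with each other group. By edgeR, *CXCL14* rose in *T* + *WSD* against *C* by a log2 fold change of 1.72 (SE 0.46, adjusted p = 0.0146), a 3.31-fold difference. Against *T* the log2 fold change was 1.47 (SE 0.45, adjusted p = 0.0519), just above the threshold of 0.05, and against *WSD* it was 0.66 (SE 0.44, adjusted p = 0.418). The diet alone gave 1.06 (SE 0.45, adjusted p = 0.218) and testosterone alone 0.25 (SE 0.45, adjusted p = 0.908), and the interaction was 0.41 (SE 0.63, adjusted p = 0.859). In *T* the 2 libraries rich in ENSMMUG00000038258 gave 9.79 and 14.8 CPM, and the other 4 gave 2.75 to 8.36 CPM. The mean of *T* was above that of *C* in the rich libraries (12.3 against 3.44 CPM) and below it in the others (5.49 against 7.84 CPM).

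*CXCL16* (ENSMMUG00000004891) encodes a membrane-bound chemokine that also takes up oxidised lipoprotein and, once shed, attracts cells with CXCR6. Its level in *C* was 55.4 ± 17.2 CPM (lowest 32.6, median 56.0, highest 84.5). In *T* it was 38.1 ± 16.97 CPM (lowest 24.1, median 33.2, highest 67.6) and in *WSD* 36.0 ± 22.3 CPM (lowest 14.4, median 33.8, highest 73.5). The 6 *T* + *WSD* animals averaged 21.3 ± 7.45 CPM (lowest 10.2, median 22.7, highest 29.9) and all lay below every control. Values of *T* and of *WSD* overlapped with those of *C* and of *T* + *WSD*. *CXCL16* fell by 1.36 on the log2 scale in *T* + *WSD* against *C* (SE 0.36, edgeR adjusted p = 0.0144), to 0.389 of the control level. The difference was -0.54 for *T* (adjusted p = 0.669), -0.63 for *WSD* (adjusted p = 0.342), -0.82 for *T* + *WSD* against *T* (adjusted p = 0.149) and -0.74 against *WSD* (adjusted p = 0.250), and the interaction was -0.20 (adjusted p = 0.928).

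**Figure D2:**
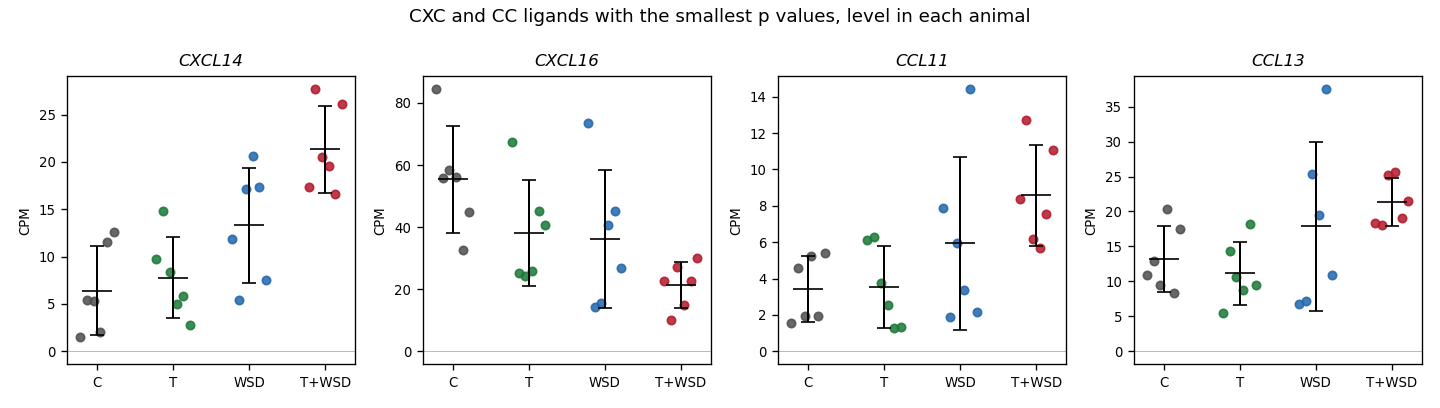
Levels in CPM (y axis) of *CXCL14*, *CXCL16*, *CCL11* and *CCL13* in each animal of the 4 groups (x axis), with bars for mean ± SD (n = 6 per group). The *T* + *WSD* animals sit at 16.6 to 27.7 CPM for *CXCL14*, above every control, and at 10.2 to 29.9 CPM for *CXCL16*, below every control.

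Both calls held when any 1 of the 24 animals was left out, with log2 fold changes of at least 1.53 for *CXCL14* (adjusted p of at most 0.0350) and of at most -1.18 for *CXCL16* (adjusted p of at most 0.0458). In the 16 libraries outside those rich in ENSMMUG00000038258, 4 per group, neither was a DEG: the log2 fold change was 1.42 for *CXCL14* (adjusted p = 0.121) and -1.005 for *CXCL16* (adjusted p = 0.109). In those libraries *CXCL14* ran from 1.98 to 12.5 CPM in *C* and from 16.6 to 26.2 CPM in *T* + *WSD*, and *CXCL16* from 32.6 to 58.5 CPM in *C* and from 14.9 to 29.9 CPM in *T* + *WSD*, so the groups still did not overlap. The 2 other libraries of each group gave 1.46 and 5.42 CPM of *CXCL14* in *C* against 17.3 and 27.7 CPM in *T* + *WSD*. For *CXCL16* those pairs were 84.5 and 55.8 CPM against 22.7 and 10.2 CPM.

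The level of mesothelial markers also differed between these groups. Their mean, as log2(CPM + 1) over 10 genes, ran from 6.51 to 8.07 in *C*, 5.92 to 7.34 in *T*, then 4.46 to 6.97 in *WSD* and 3.07 to 5.53 in *T* + *WSD*, with no overlap between *T* + *WSD* and *C*. *CXCL16* was highest (84.5 CPM) in the control animal with the highest mesothelial mean and lowest (10.2 CPM) in the *T* + *WSD* animal with the lowest, which also had the highest *CXCL14* (27.7 CPM). Both extremes came from libraries rich in ENSMMUG00000038258 (9.92% and 54.7% of counts), the latter the shallowest of all. Between these extremes the order was kept only in part. In *WSD* the 2 animals with the lowest mesothelial means also had the lowest *CXCL16*. These were replicate 21 (mean 4.46, 15.7 CPM) and replicate 20 (mean 5.55, 14.4 CPM). Against the order, *WSD* replicate 24, with a mesothelial mean of 6.97, had 26.9 CPM of *CXCL16*. Likewise *T* + *WSD* replicate 12, with a mesothelial mean of 4.52, had 29.9 CPM. With this mean as a covariate the log2 fold change of *CXCL16* in *T* + *WSD* against *C* was 0.14 (adjusted p = 0.9998) and that of *CXCL14* 0.71 (adjusted p = 0.9998), and no gene of the whole table was a DEG. Because the mean did not overlap between these 2 groups, this fit cannot separate the markers from the treatment, and no conclusion is drawn from it. In bulk tissue, fewer cells of a type and less RNA per cell cannot be told apart.

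**Figure D3:**
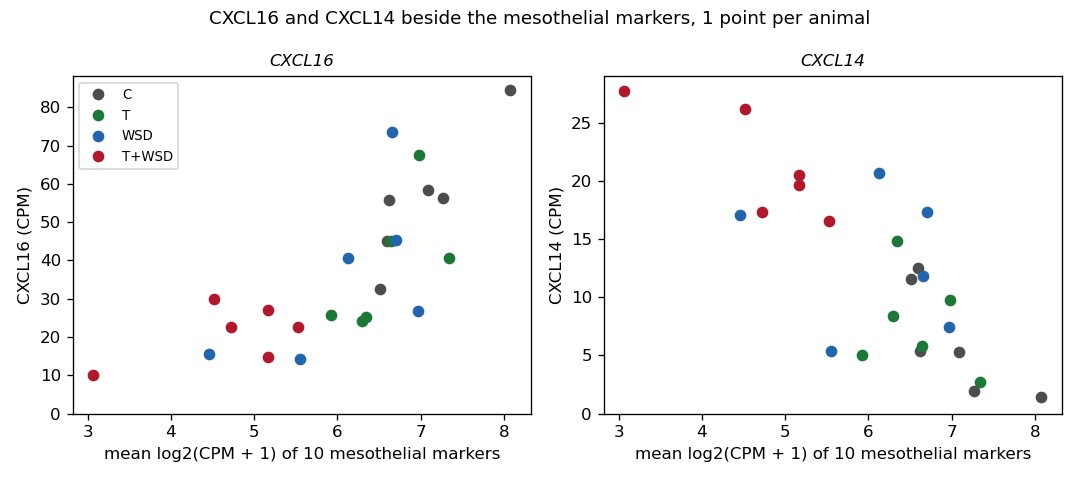
*CXCL16* (left) and *CXCL14* (right) in CPM (y axis) against the mean log2(CPM + 1) of 10 mesothelial markers (x axis), 1 point per animal, coloured by group. *T* + *WSD* animals lie at 3.07 to 5.53 on the x axis and controls at 6.51 to 8.07, and the 2 extremes of *CXCL16* (84.5 and 10.2 CPM) are also the extremes of the mesothelial mean. Both are libraries rich in ENSMMUG00000038258.

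Several of the CC ligand genes lie next to each other in the genome. In the RefSeq annotation of the T2T-MMU8v2.0 assembly, *CCL2*, *CCL7*, *CCL11*, *CCL8*, *CCL13* and *CCL1* form a run of 6 neighbouring genes with no other protein-coding gene between them, and 4 of the 6 were tested. The group averages of *CCL11* and *CCL13* were highest in *T* + *WSD*, that of *CCL2* was highest in *WSD*, and that of *CCL8* was close to 2 CPM in every group but *T*. None of the 4 was a DEG in any comparison.

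*CCL11* (ENSMMUG00000009783), the eosinophil attractant eotaxin, is described in full because of its values, outside the rule for named genes. It measured 3.45 ± 1.81 CPM in *C* (lowest 1.57, median 3.27, highest 5.40) and 3.54 ± 2.26 CPM in *T* (lowest 1.25, median 3.14, highest 6.29). The *WSD* level was 5.94 ± 4.75 CPM (lowest 1.90, median 4.65, highest 14.4) and in *T* + *WSD* 8.59 ± 2.78 CPM (lowest 5.69, median 7.94, highest 12.7). In *T* the 2 libraries rich in ENSMMUG00000038258 gave 6.13 and 6.29 CPM, and the other 4 gave 1.25 to 3.73 CPM. In the other groups the 2 sets of libraries overlapped. Each of the 6 *T* + *WSD* animals was above all 6 controls, but the log2 fold change of 1.31 (SE 0.49, edgeR adjusted p = 0.0693) missed the threshold. DESeq2 called it (log2 fold change 1.34, adjusted p = 0.0338). Against *T* the log2 fold change was 1.29 (SE 0.49, adjusted p = 0.107). Counts of its receptor *CCR3* were too low for a test.

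*CCL13* (ENSMMUG00000009785), which attracts monocytes and eosinophils through CCR2 and CCR3, measured 13.3 ± 4.73 CPM in *C* (lowest 8.34, median 11.9, highest 20.3) and 11.1 ± 4.51 CPM in *T* (lowest 5.46, median 10.03, highest 18.3). For *WSD* it was 17.9 ± 12.1 CPM (lowest 6.76, median 15.3, highest 37.5) and in *T* + *WSD* 21.3 ± 3.43 CPM (lowest 18.1, median 20.3, highest 25.7). The *T* + *WSD* animals overlapped with the top of every other group. The log2 fold change was 0.69 against *C* (SE 0.35, adjusted p = 0.177) and 0.94 against *T* (SE 0.35, adjusted p = 0.0991).

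*CCL2* (ENSMMUG00000000288), the monocyte attractant MCP-1, measured 12.7 ± 6.69 CPM in *C* (lowest 7.20, median 10.8, highest 25.9) and 8.27 ± 4.44 CPM in *T* (lowest 1.81, median 8.63, highest 14.7). In *WSD* it was 19.2 ± 16.2 CPM (lowest 10.02, median 13.7, highest 52.1), the highest value coming from *WSD* replicate 23, and in *T* + *WSD* 10.8 ± 4.39 CPM (lowest 5.09, median 10.7, highest 17.2). All groups overlapped. Its log2 fold changes were 0.60 for *WSD* (SE 0.44, adjusted p = 0.474), -0.64 for *T* (SE 0.45, adjusted p = 0.700) and -0.22 for *T* + *WSD* against *C* (SE 0.45, adjusted p = 0.778). *CCL8*, another monocyte attractant, averaged 2.09 CPM in *C*, 1.02 in *T*, with 1.85 in *WSD* and 2.01 in *T* + *WSD*, and its log2 fold change in *T* was -1.01 (SE 0.51, adjusted p = 0.592).

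*CCL18* (ENSMMUG00000047114), made by macrophages in an anti-inflammatory state and attracting T cells, lies in another run of 5 neighbouring CC ligand genes (*CCL16*, *CCL14*, *CCL15*, *CCL23* and *CCL18*) and was the only 1 of them abundant enough to test. Its level was 3.00 ± 1.64 CPM in *C* (lowest 0.225, median 3.08, highest 4.92) and 9.71 ± 9.30 CPM in *T* (lowest 1.56, median 6.07, highest 25.6). The *WSD* level was 6.73 ± 6.55 CPM (lowest 2.37, median 5.08, highest 19.8) and in *T* + *WSD* 6.54 ± 4.10 CPM (lowest 1.13, median 6.48, highest 11.9). The groups overlapped, and in *T* the highest values, 25.6 and 15.6 CPM, came from the 2 libraries rich in ENSMMUG00000038258. The log2 fold change in *T* was 1.70 (SE 0.68, adjusted p = 0.547), and 0.41 (adjusted p = 0.849) without the 8 such libraries. Macrophage markers, summed over 9 identifiers, ran from 220 to 1246 CPM in *C*, 371 to 1269 in *T*, then 508 to 1099 in *WSD* and 568 to 1059 in *T* + *WSD*. Of the 9, *MSR1*, a scavenger receptor, was a DEG in *T* + *WSD* against *C* (log2 fold change 1.66, SE 0.50, adjusted p = 0.0269). The other 8 were not called, *MARCO* for example having a log2 fold change of -1.55 (SE 1.19, adjusted p = 0.391), and 5 of the 9 estimates were above 0 and 4 below. The part of these markers in the levels of *CCL2*, *CCL13* and *CCL18* was not tested.

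Other CC ligands were scarce. *CCL19*, which guides dendritic cells and naive T cells to lymph nodes through CCR7, measured 1.04 ± 1.99 CPM in *C* (lowest 0.124, median 0.216, highest 5.09, the latter in *C* replicate 2), 0.913 ± 0.425 in *T*, with 1.09 ± 0.954 in *WSD* and 0.680 ± 0.242 in *T* + *WSD*. Its medians in the other groups were 0.958 CPM in *T* (0.281 to 1.59), with 0.794 in *WSD* (0.125 to 2.64) and 0.642 in *T* + *WSD* (0.344 to 1.05). *CCL25*, a thymic and gut chemokine, averaged 0.613 to 0.872 CPM over the groups, and *CCL26*, the third eotaxin, 0.488 to 0.686 CPM. *CCL25* had the lowest p of any member for the interaction, with an interaction estimate of 0.83 on the log2 scale (SE 0.39, adjusted p = 0.357).

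Among the CXC ligands, *CXCL12* (ENSMMUG00000012181) is the stromal retention factor that binds CXCR4. It measured 82.2 ± 27.1 CPM in *C* (lowest 51.5, median 78.2, highest 116) and 78.2 ± 27.6 CPM in *T* (lowest 56.9, median 66.3, highest 130). For *WSD* it was 86.6 ± 19.5 CPM (lowest 68.8, median 80.5, highest 124) and in *T* + *WSD* 97.6 ± 22.4 CPM (lowest 72.0, median 97.1, highest 131). All groups overlapped, and the log2 fold change in *T* + *WSD* against *C* was 0.24 (SE 0.22, adjusted p = 0.484).

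*CXCL9* and *CXCL10*, neighbouring genes induced by interferon-gamma that attract T cells through CXCR3, were high in single animals of different groups. *CXCL10* averaged 4.99 CPM in *C* (lowest 0.439, median 1.55, highest 23.1), 6.79 in *T* (lowest 0.365, median 0.847, highest 35.8), with 2.80 in *WSD* (lowest 0.136, median 1.60, highest 9.35) and 0.824 in *T* + *WSD* (lowest 0, median 0.650, highest 1.996). *CXCL9* averaged 4.05 CPM in *C*, 4.86 in *T*, with 3.27 in *WSD* and 2.51 in *T* + *WSD*. The same animals were highest for both: *C* replicate 2 (23.1 CPM of *CXCL10* and 17.7 of *CXCL9*), *T* replicate 13 (35.8 and 21.004), *WSD* replicate 22 (9.35 and 8.32) and *T* + *WSD* replicate 12 (1.996 and 6.15). The log2 fold change of *CXCL10* in *T* + *WSD* was -2.39 against *C* (SE 1.21, adjusted p = 0.175) and -2.91 against *T* (SE 1.21, adjusted p = 0.133). Both rested on single animals. Without *C* replicate 2 the former was -0.59 (adjusted p = 0.758), and without the 8 libraries rich in ENSMMUG00000038258 it was -0.42 (adjusted p = 0.811). Without *T* replicate 13 the latter was -0.17, and without the 8 libraries it was -0.07.

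**Figure D4:**
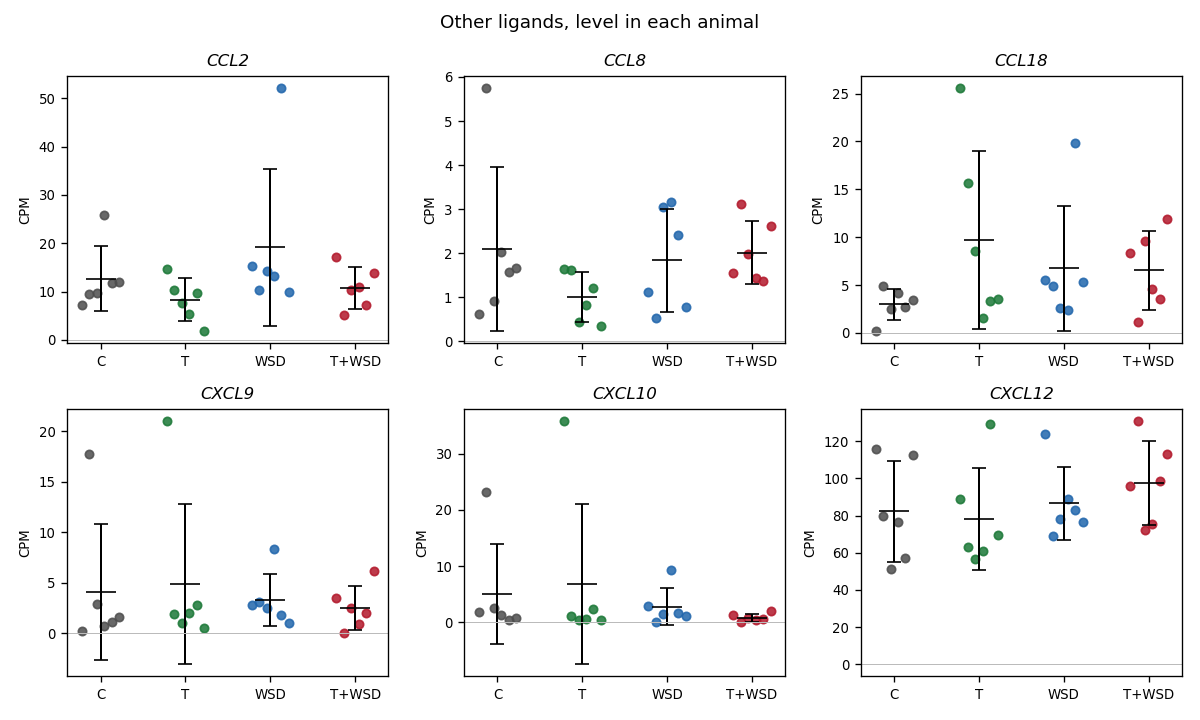
Levels in CPM (y axis) of *CCL2*, *CCL8*, *CCL18*, *CXCL9*, *CXCL10* and *CXCL12* in each animal of the 4 groups (x axis), with bars for mean ± SD (n = 6 per group). Single animals reach 52.1 CPM for *CCL2*, 25.6 for *CCL18*, 35.8 for *CXCL10* and 21.004 for *CXCL9*, while the other animals of those groups lie lower and the groups overlap.

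No receptor was a DEG in any comparison. *ACKR1* (ENSMMUG00000001300), the Duffy antigen, is an atypical receptor of venular endothelium and red cells that binds and transports many CC and CXC ligands. It measured 49.6 ± 25.4 CPM in *C* (lowest 24.5, median 42.8, highest 89.0) and 56.1 ± 11.1 CPM in *T* (lowest 42.9, median 54.8, highest 71.6). In *WSD* it was 57.0 ± 15.7 CPM (lowest 36.0, median 60.9, highest 76.3) and in *T* + *WSD* 69.6 ± 14.2 CPM (lowest 55.8, median 64.2, highest 91.6). The groups overlapped, the log2 fold change in *T* + *WSD* against *C* being 0.49 (SE 0.26, adjusted p = 0.199). Without *C* replicate 4 it was 0.74 and passed the threshold (adjusted p = 0.0434). Of 7 endothelial markers, 4 (*PECAM1*, *VWF*, *CDH5* and *CLDN5*) were called higher in *T* + *WSD* than in *C*. The others were not called: *EMCN* averaged 34.4 CPM in *C* and 45.3 in *T* + *WSD*, *TEK* 105 and 111, and *KDR* 145 and 115. The summed level of the 7 ran from 942 to 1593 CPM in *C* and from 1741 to 2756 CPM in *T* + *WSD*. Much of it was *VWF*, which averaged 577 CPM in *C* and 1133 CPM in *T* + *WSD*. The part of endothelial markers in the level of *ACKR1* was not tested.

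*CXCR4* (ENSMMUG00000011918), the receptor of CXCL12 on most leukocytes and on endothelium, measured 14.5 ± 7.21 CPM in *C* (lowest 5.78, median 14.7, highest 24.6) and 13.1 ± 2.36 CPM in *T* (lowest 11.03, median 12.2, highest 17.1). The *WSD* level was 15.7 ± 4.97 CPM (lowest 8.68, median 15.6, highest 24.03) and in *T* + *WSD* 18.7 ± 6.55 CPM (lowest 12.2, median 17.05, highest 30.8). Groups overlapped, with a log2 fold change in *T* + *WSD* of 0.39 against *C* (SE 0.29, adjusted p = 0.378) and 0.52 against *T* (SE 0.29, adjusted p = 0.257).

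*CXCR6* (ENSMMUG00000023587), the receptor of CXCL16 on T and natural killer T cells, showed no called difference beside that of its ligand. It measured 1.77 ± 1.27 CPM in *C* (lowest 0.527, median 1.58, highest 4.10), 1.80 ± 1.73 in *T* (lowest 0.563, median 1.14, highest 5.01), with 1.51 ± 1.59 in *WSD* (lowest 0.407, median 0.958, highest 4.65) and 1.48 ± 1.23 in *T* + *WSD* (lowest 0.632, median 1.10, highest 3.95). The log2 fold change in *T* + *WSD* against *C* was -0.15 (SE 0.64, adjusted p = 0.911). *CXCR3*, the receptor of CXCL9 and CXCL10 on activated T cells, averaged between 0.630 CPM in *C* and 1.05 CPM in *T*, and its log2 fold change in *T* + *WSD* was 0.28 (SE 0.65, adjusted p = 0.815). T and NK cell markers, summed over 10 identifiers, lay between 7.07 and 37.6 CPM in all animals, and none of the 10 was a DEG in *T* + *WSD* against *C*.

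*CXCR2* (ENSMMUG00000013400), the receptor with which neutrophils follow CXC ligands, measured 1.47 ± 0.592 CPM in *C* (0.562 to 2.11, median 1.46), 1.64 ± 0.568 in *T* (1.09 to 2.68, median 1.54), with 1.72 ± 0.267 in *WSD* (1.26 to 2.05, median 1.73) and 1.67 ± 0.642 in *T* + *WSD* (0.956 to 2.87, median 1.56). The groups overlapped and the log2 fold change in *T* + *WSD* was 0.18 (SE 0.29, adjusted p = 0.724). Of 4 tested neutrophil markers, *S100A8* and *S100A9* were lower in *T* + *WSD* than in *C* (log2 fold changes -2.97 and -3.08, adjusted p = 0.0394 and 0.0206), with overlap between the groups. The other 2 were not called, with log2 fold changes of 0.64 for *MPO* (adjusted p = 0.416) and 0.14 for *CSF3R* (adjusted p = 0.807).

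The remaining receptors were near the limit of what these libraries could count. *CCR7* (ENSMMUG00000002102), the lymph node homing receptor, measured 0.382 ± 0.271 CPM in *C* (0.165 to 0.821, median 0.260), 0.689 ± 0.448 in *T* (0.271 to 1.35, median 0.542), with 0.381 ± 0.156 in *WSD* (0.208 to 0.570, median 0.338) and 0.392 ± 0.192 in *T* + *WSD* (0.247 to 0.749, median 0.298). Its log2 fold change in *T* was 0.90 (SE 0.46, adjusted p = 0.595). *CCR6* (ENSMMUG00000005676), found on B cells and IL-17-producing T cells, averaged 0.973 ± 0.938 CPM in *C* (0.176 to 2.79, median 0.729), 0.620 ± 0.370 in *T* (0.325 to 1.32, median 0.531), with 0.713 ± 0.521 in *WSD* (0.291 to 1.69, median 0.497) and 0.590 ± 0.404 in *T* + *WSD* (0 to 1.08, median 0.607). *CCR10* (ENSMMUG00000006090), a skin and mucosa homing receptor, averaged 1.07 ± 0.467 CPM in *C* (0.492 to 1.91, median 1.02), 0.803 ± 0.233 in *T* (0.487 to 1.16, median 0.777), with 0.611 ± 0.415 in *WSD* (0 to 1.16, median 0.606) and 0.705 ± 0.299 in *T* + *WSD* (0.289 to 1.13, median 0.649).

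All groups overlapped for these receptors, and in *T* + *WSD* against *C* the log2 fold changes were 0.19 for *CCR7* (adjusted p = 0.832), -0.51 for *CCR6* (adjusted p = 0.588) and -0.73 for *CCR10* (SE 0.43, adjusted p = 0.253). *XCR1* (ENSMMUG00000023584), which marks cross-presenting dendritic cells and is a neighbour of *CXCR6* in the genome, measured 0.664 ± 0.582 CPM in *C* (0.225 to 1.72, median 0.361), 0.863 ± 0.864 in *T* (0.156 to 2.54, median 0.603), with 0.737 ± 0.585 in *WSD* (0 to 1.30, median 0.780) and 0.611 ± 0.346 in *T* + *WSD* (0 to 1.03, median 0.608), with a log2 fold change in *T* + *WSD* of 0.04 (SE 0.67, adjusted p = 0.979). *CCR4*, a receptor of type 2 helper and regulatory T cells, averaged 0.315 to 0.489 CPM over the groups. Zeros of these receptors stood in shallow libraries: in *T* + *WSD* replicate 8, 3 counts equal 0.848 CPM, and in *WSD* replicate 20 they equal 0.407 CPM.

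**Figure D5:**
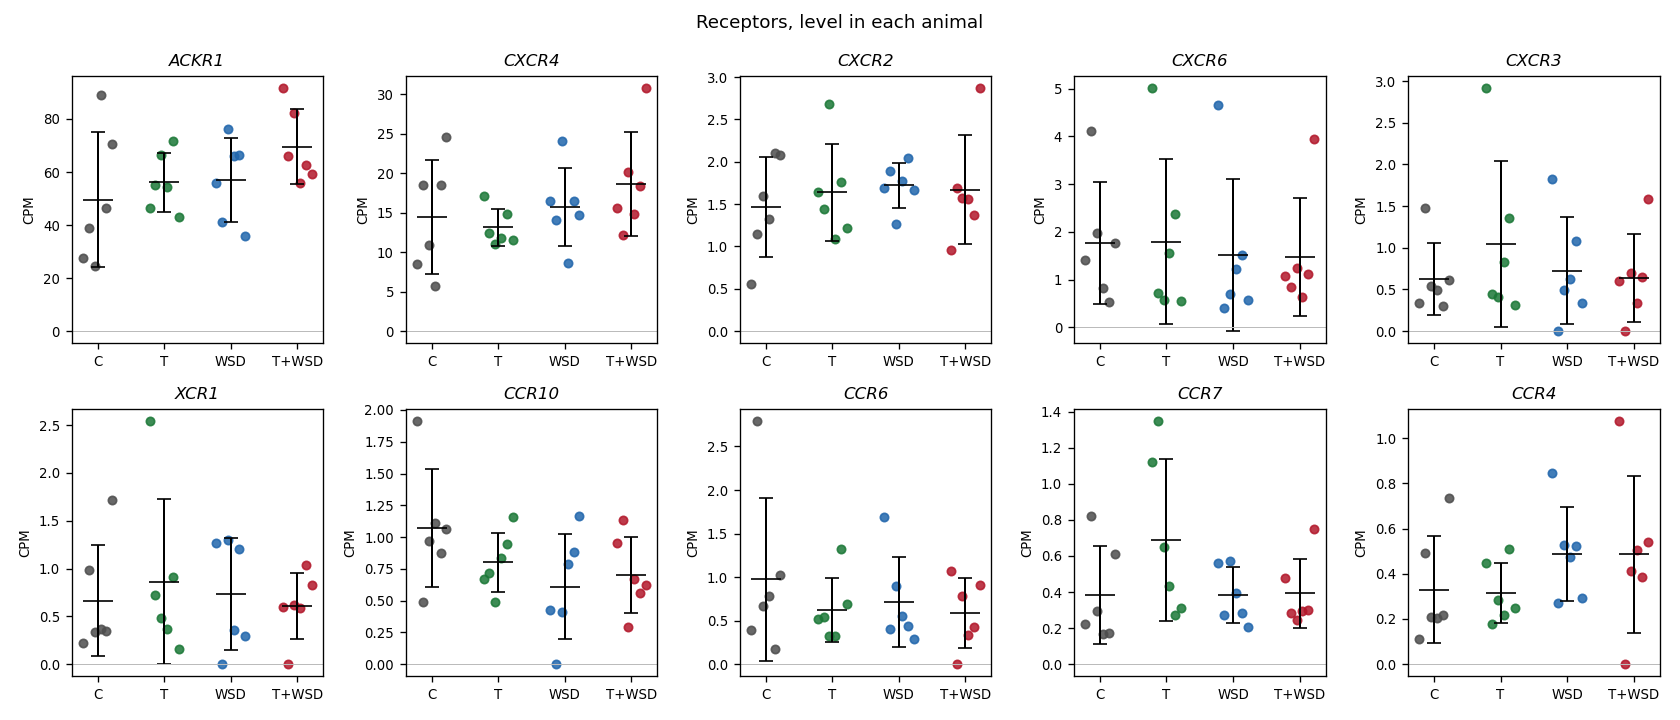
Levels in CPM (y axis) of the 10 tested receptors in each animal of the 4 groups (x axis), with bars for mean ± SD (n = 6 per group). *ACKR1* (24.5 to 91.6 CPM) and *CXCR4* (5.78 to 30.8 CPM) overlap between groups, and every *CCR4* value lies at or below 1.08 CPM.

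Testosterone alone and diet alone gave no DEG by edgeR among the members, or in the whole table (0% of all tested genes in both). Without *WSD* replicate 19, edgeR called 59 genes in *WSD*, none of them a member. Against *C*, 1 of 23 members had an unadjusted p under 0.05 in *T* (*CCL18*) where 8.63% of all tested genes did, and 1 in *WSD* (*CXCL14*) where 18.5% did. DESeq2 called 0 members in both comparisons, and over the whole table it called 7 genes in *T* (0.0466%) and 238 in *WSD* (1.58%). The member medians of the log2 fold change were 0.02 in *T* and 0.13 in *WSD*, against -0.02 in both over all tested genes. No member had groups without overlap in either comparison, which 0.263% of all tested genes had in *T* and 0.401% in *WSD*.

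Adding testosterone to the diet (*T* + *WSD* against *WSD*) gave 0 DEGs among the members by edgeR and by DESeq2, against 0.815% of all tested genes by edgeR and 2.54% by DESeq2, and 0 members with an unadjusted p under 0.05, against 20%. *CXCL16* missed that threshold only barely, with an unadjusted edgeR p of 0.0500074 (adjusted p = 0.250). No member separated the groups, against 2.84% of all tested genes. The member log2 fold changes ran from -1.69 to 0.66 with a median of 0.05.

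Adding the diet to testosterone (*T* + *WSD* against *T*) gave 0 DEGs by edgeR and 1 by DESeq2, *CXCL14* (log2 fold change 1.48, adjusted p = 0.0171), where edgeR called 3.77% of all tested genes and DESeq2 5.92%. The edgeR call of *CXCL14* (adjusted p = 0.0519) was made when *WSD* replicate 20, *T* replicate 14 or any of *C* replicates 1, 4, 5 and 6 was left out, with adjusted p values from 0.0277 to 0.0472. An unadjusted p under 0.05 was reached by 5 members, *CXCL14*, *CCL11* and *CCL13* with higher and *CXCL16* and *CXCL10* with lower levels, against 25.9% of all tested genes. Only *CXCL14* separated the groups, as 6.10% of all tested genes did. These comparisons share their *T* + *WSD* animals with the one against *C*.

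For the interaction of testosterone and diet, 0 members passed by edgeR and 0 by DESeq2, where 0.809% of all tested genes passed by edgeR and 2.77% by DESeq2. *CCL25* alone had an unadjusted p under 0.05, as did 13.5% of all tested genes. Estimates for the members ran from -2.21 (*CXCL10*) to 1.05 (*CCL8*) on the log2 scale, with a median of 0.09. The estimate of *CXCL10* was 0.55 without *T* replicate 13, -1.27 without *WSD* replicate 22 and -4.003 without *C* replicate 2.

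The pathway that chemokines act through was followed with 4 lists of other genes. In *T* + *WSD* against *C*, 2 of 28 tested signalling genes were higher, 2 of 16 genes of chemokine processing and presentation were higher and 2 lower, 4 of 22 leukocyte adhesion genes were higher and 1 lower, and 1 of 23 regulators of chemokine genes was lower. The median log2 fold changes of the lists were 0.05, 0.07, 0.03 and 0.05 in that order, against -0.04 over all tested genes, of which 4.72% were called higher and 5.29% lower. Of the 32 list genes and cell type markers called in this comparison, all 32 had the same sign and 0 were DEGs in the 16 libraries outside those rich in ENSMMUG00000038258. Against *T* 14 were called, of which 14 had the same sign and 3 (*MSR1*, *KLK11* and *SDC2*) were DEGs in the 16 libraries, and against *WSD* 1 was called, *ELMO1*, and was not a DEG there (adjusted p = 0.223). In *T*, in *WSD* and for the interaction edgeR called 0 genes of any of the lists.

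Inside the cell, chemokine receptors signal through G proteins and Rac. *GNG2*, a G protein gamma subunit, averaged 56.2 ± 27.2 CPM in *C* and 113 ± 19.6 CPM in *T* + *WSD* (log2 fold change 1.01, SE 0.28, adjusted p = 0.0175). *ELMO1*, which with DOCK proteins activates Rac in migrating cells, averaged 27.4 ± 7.54 CPM in *C*, 29.0 ± 3.69 in *T*, with 29.3 ± 4.48 in *WSD* and 44.5 ± 4.26 in *T* + *WSD*. It rose in *T* + *WSD* against *C* (log2 fold change 0.70, adjusted p = 0.00616), against *WSD* (0.60, adjusted p = 0.0455) and against *T* (0.61, adjusted p = 0.0248), all 6 animals lying above every animal of each other group.

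Among the genes of processing and presentation, *DPP4*, a peptidase that trims CXCL12, CXCL10 and CCL11, averaged 127 ± 143 CPM in *C* and 25.5 ± 17.3 CPM in *T* + *WSD* (log2 fold change -2.30, SE 0.59, adjusted p = 0.0124). *RARRES2*, which encodes the chemoattractant chemerin, averaged 187 ± 53.8 CPM in *C* and 90.6 ± 15.1 CPM in *T* + *WSD* (log2 fold change -1.05, SE 0.23, adjusted p = 0.00681). *NDST1*, a heparan sulfate sulfotransferase, was higher (log2 fold change 0.87, adjusted p = 0.0168), as was the protease *MMP9* (log2 fold change 2.08, adjusted p = 0.0335), and the syndecan *SDC2* was lower in *T* + *WSD* than in *T* (log2 fold change -0.78, adjusted p = 0.00713). *MMP9* overlapped between *T* + *WSD* and *C*, with 3 animals above all controls. *DPP4* overlapped too, at 25.6 to 408 CPM in *C* and 6.78 to 55.0 CPM in *T* + *WSD*. Its log2 fold change was -1.24 in the 16 libraries outside those rich in ENSMMUG00000038258.

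Of the adhesion genes, the endothelial molecules *PECAM1* (log2 fold change 0.88, adjusted p = 0.00294), *JAM2* (0.69, adjusted p = 0.00940) and *ICAM2* (0.76, adjusted p = 0.0206) and the myeloid integrin *ITGAX* (1.77, adjusted p = 0.0258) were higher in *T* + *WSD* than in *C*. The adhesion molecule *VCAM1* (-0.75, adjusted p = 0.0424) was lower. Animals of the 2 groups overlapped for *JAM2*, *ICAM2*, *ITGAX* and *VCAM1*, and not for *PECAM1*. *PECAM1* is also among the endothelial markers given above, so it is counted in both lists. The part of endothelial markers in the levels of *JAM2* and *ICAM2* was not tested. Among the regulators only *TLR2*, a receptor for bacterial lipoproteins, was a DEG (-1.08, adjusted p = 0.0223), averaging 24.1 ± 10.1 CPM in *C* and 11.1 ± 3.63 CPM in *T* + *WSD*.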

How the data were processed

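RNA was extracted from omental WAT of 24 macaques and single-end libraries were made after ribosomal RNA depletion. The authors deposited 1 table of raw counts per gene, with no normalization and 1 column per animal. The submitters' processing notes list FastQC 0.11.5, Trimmomatic 0.36, STAR 2.5.2b and DESeq2 1.18.1, and the study's methods name the rheMac8 assembly. The counting tool and its strand setting are not given in the sources used here, so overlapping and antisense genes, and near-identical CC ligand copies such as CCL4L1, may share reads.

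Groups were taken from the sample labels. Counts were scaled by TMM and fitted with edgeR 4.0.16 in R 4.3.3 (glmQLFit with robust=TRUE and legacy=TRUE, glmQLFTest) in 1 fit of 4 groups, after filterByExpr (minimum count 10, minimum total count 15). P values are two-sided, and adjusted p values were computed over all 15207 tested genes. SE is the log2 fold change divided by the root of F. CPM uses TMM-scaled library sizes. The depth of each library sets the smallest CPM it can show.

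The members and lists were chosen with earlier results of these data known. Values in every group were given for members called in any comparison, the 3 with the most counts in each role class, those with an unadjusted p under 0.01 and tested receptor or ligand partners. Levels of some other members, *CCL8*, *CCL11*, *CXCL9* and *CXCL10* among them, were given outside this rule. List genes that were called are given by their fold changes, with levels for some. Their values without the 8 libraries were computed as an alternative chosen after seeing the data. Alternatives were DESeq2 1.42.0, other scaling, filtering and dispersion settings, covariates, fewer libraries and leaving out each animal. The bisulfite data were not analysed here. The result of 1 list gene is not reported here, and the counts leave it out.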

Additional observations from a re-analysis of the deposited data

Results flagged for a closer look

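In each group of 6 animals, the highest and lowest value of every tested member, as log2(CPM + 0.01), were compared with the rest by Dixon's ratio, over 92 groups. Chance marks about 1 in 20 groups if the values are normally distributed. That rate does not hold for a count of 0, whose gap to the rest depends on the offset of 0.01 and on the depth of the library. A single animal stood apart from the other 5 at the top in *CCL2* (52.1 CPM in *WSD* replicate 23, the others 10.02 to 15.3), *CCL19* (5.09 CPM in *C* replicate 2, the others 0.124 to 0.409) and *CXCR6* (3.95 CPM in *T* + *WSD* replicate 12, the others 0.632 to 1.24). At the bottom, *C* replicate 1 stood apart in *CCL18* (0.225 CPM, the others 2.48 to 4.92). In *T* + *WSD* replicate 8, where 3 counts equal 0.848 CPM, *CCR4*, *CCR6*, *CXCL9*, *CXCL10*, *CXCR3* and *XCR1* were each at 0. In *WSD* replicate 20, where 3 counts equal 0.407 CPM, *CCR10*, *CXCR3* and *XCR1* were each at 0. The other 5 animals of the group lay above that library's 3-count level for *CXCL9* (0.927 to 6.15 CPM) and, barely, for *CCR10* (0.407 to 1.16 CPM), and in part below it for the rest.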

How the results depend on the processing

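In *T* + *WSD* against *C*, 2 members were called with RLE size factors, no filter, another dispersion setting (legacy=FALSE), no fold threshold or membership of the 8 libraries rich in ENSMMUG00000038258 as a covariate, and 3 with DESeq2 (*CCL11* added). None was called in the 16 other libraries (0, with 78 genes called in all, from 4 instead of 6 animals per group) or with the mesothelial mean as a covariate (0), and 4 were called when only the 2 groups were fitted (*CCL11* and *CCL13* added). Over the whole table the main fit called 1522 genes, DESeq2 1894 and the fit of only the 2 groups 1415. The settings that called 2 members gave 1361 (no filter) to 2603 (no fold threshold) genes. Leaving out 1 animal gave 2 to 3 members, the added member being *ACKR1* without *C* replicate 4 (1473 genes called in all) and *CCL11* without *WSD* replicate 23 (1517). In *T* + *WSD* against *T*, where 0 were called, DESeq2, legacy=FALSE and the 16 libraries each gave 1 (*CXCL14*), fitting only the 2 groups gave 2 (*CCL13* and *CXCL14*), and leaving out 1 animal gave 0 to 1. Over the whole table the main fit called 574 genes there and the fit of only the 2 groups 1059. DESeq2 called 1086, legacy=FALSE 686 and the 16 libraries 308. In the other 4 comparisons 0 members were called under every alternative run. With the mesothelial mean as a covariate *CXCL16* changed sign, to 0.14 against *C* and 0.41 against *T* on the log2 scale. That mean did not overlap between *T* + *WSD* and either *C* or *T*, so the fit cannot separate it from the group. The cause of these shifts was not tested. Of 127 member effects with an unadjusted p of at least 0.05, 79 changed sign in at least 1 alternative. The labels number the animals 1 to 24 without repeats. No paired analysis was possible because the groups share no replicate number. Low counts limited the 18 untested members and the receptors near or under 1 CPM.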
